A study of Mus musculus with 4 samples.

Results

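The RAS-RAF-ERK cascade and the genes it switches on were followed in protrusions and cell bodies of YUMM1.7 mouse melanoma cells. The 35 genes were chosen by name from the 16537 genes of the table, with earlier results of these data known. They comprise 14 signalling components (5 that act upstream of RAF, 6 of the kinase module and 3 kinases that ERK activates) and 21 output genes (9 feedback inhibitors, 8 transcription factors and 4 other targets). Of the kinases, Map2k2, which encodes MEK2, was 1.90-fold higher in protrusions, while the libraries of the 2 fractions overlapped for Braf itself. The median gene of the set lay above the median of all genes, and most output genes had log2 fold changes above 0. Dusp6, the cytosolic ERK phosphatase, was lower in protrusions once the replicates were paired.

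RNA-seq was done on 2 libraries of protrusions and 2 of cell bodies, each labelled as a biological replicate. Cells had been plated on membranes with 1-µm pores whose underside carried fibronectin. Protrusions were lysed from the membrane after the cell bodies had been scraped from its top, and each replicate drew on 6 inserts. All 4 libraries come from this 1 cell line, labelled wildtype for genotype, although the line was engineered with activated Braf and inactivated Cdkn2a. No group without activated Braf, no drug and no time course was included, so that each value is a level in a fraction of untreated cells under a constantly driven pathway.

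In this pathway growth factor receptors recruit the adaptors SHC1 and GRB2 and the exchange factor SOS1, which loads RAS with GTP. RAS activates RAF kinases, RAF activates MEK, and MEK activates ERK. ERK then drives transcription of immediate early genes and of its own inhibitors, the dual-specificity phosphatases and the Sprouty and SPRED proteins. Mutant BRAF, a common driver of melanoma, feeds this cascade without an upstream signal, and high output of the feedback genes is a known feature of such tumours. The mRNAs of kinases are generally stable, whereas those of immediate early genes are generally short-lived. Decay was not measured in these libraries.

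A sequence associated with fast decay is the AU-rich element of the 3′ untranslated region (UTR), whose core is ATTTA and whose longer form is the nonamer TTATTTATT. The nonamer was searched on the RNA strand of the 3′ UTR of 1 GENCODE M21 transcript per gene (GRCm38). It occurred in 4 of the 35 genes, against 7.86% of the tested genes with a 3′ UTR. The sites are shown because 3 of the 4 lie in output genes and the fourth in Braf. Each is 30 bases long with the nonamer in capitals.
Braf: taatgaatagTTATTTATTtaaagtatgaa
Dusp1: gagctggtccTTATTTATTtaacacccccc
Fos: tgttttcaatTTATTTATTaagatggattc
Phlda1: tggattatgaTTATTTATTagtttttttat
The Braf site starts 3515 bases into its 3′ UTR on the minus strand, with its window at chr6:39606848-39606877. The Dusp1 window is at chr17:26506158-26506187 on the minus strand, with the nonamer at base 103 of a 690-base UTR that holds 2 of them, of which the earlier is shown. The Fos window is at chr12:85477103-85477132 on the plus strand, with the nonamer at base 655. The Phlda1 window is at chr10:111508348-111508377 on the plus strand, with the nonamer at base 325. The Braf nonamer thus lay farther from the stop codon than any nonamer of the output genes. The shorter ATTTA, which the nonamer contains, occurred in 29 of the 35 genes, against 69.6% of all such genes, with a median of 1.94 per kb in the output genes, 1.14 in the signalling components and 1.36 over all genes. A match is a description of letters and not of a site in use. The only tested genes of the set with the nonamer, Braf, Dusp1 and Phlda1, had log2 fold changes of -0.01, -0.04 and 0.48.

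Values are in TPM, a unit that scales each gene to its length and each library to the same sum, so that levels can be compared between genes and a difference between fractions is one of shares. In these bulk fractions a difference in the number of cells that contributed and one in RNA per cell cannot be told apart. Reads assigned to genes, recovered from the TPM values, came to 25854888 and 30994908 in protrusions and to 29289505 and 25900795 in cell bodies. The fewest reads of any of the 35 genes were 13 for Fos, 21 for Spry1 and 56 for Dusp1 in a library. A list of 20 liver transcripts summed to 74.95 and 3.41 TPM in protrusions 1 and 2, against 1.19 and 2.86 TPM in cell bodies 1 and 2, with 17 of them reaching 1 TPM in a library. Protrusions 1 thus stood apart in transcripts of another tissue, whose part in the results was not tested. Values without this library, from the fit without the block described below, are given where they change a call. The calls with the block were not refitted without protrusions 1. Of 10 melanocyte lineage markers 5 were among the rows used, with sums of 19.3 and 18.9 TPM in protrusions and of 18.2 and 21.1 TPM in cell bodies. Mitf, the lineage's defining transcription factor, was present at 5.45 and 6.17 TPM in protrusions and 5.12 and 5.93 TPM in cell bodies, while the pigment genes Pmel and Tyr stayed under 1 TPM in all 4 libraries. Myeloid markers summed to at most 7.12 TPM and endothelial markers to at most 0.161 TPM in any library.

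Each gene was compared between fractions with limma on log2(TPM + 0.5) over the 11400 genes with a mean of at least 1 TPM, with Benjamini-Hochberg adjustment of the p-values over all of them. Of the 35 genes 34 were tested, and Fos was below the minimum. Since the replicate number was taken to pair the libraries, values with that number as a block are given beside those without it. Without the block 1 of the 34 was higher in protrusions at an adjusted p under 0.05, against 2.99% of all tested genes, and 0 were lower, against 4.25% of all. At an unadjusted p under 0.05 there were 11 higher and 1 lower. With the block 10 were higher, against 8.08% of all, and 1 was lower, against 13.3% of all. Both protrusion libraries lay above both cell body libraries for 19 of the 34, against 26.4% of all tested genes, and below both for 2, against 37% of all. The log2 fold change was above 0 for 28 of the 34 (82.4%), against 43.1% of all. The set was thus shifted towards protrusions relative to the bulk of genes.

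**Figure D1:**
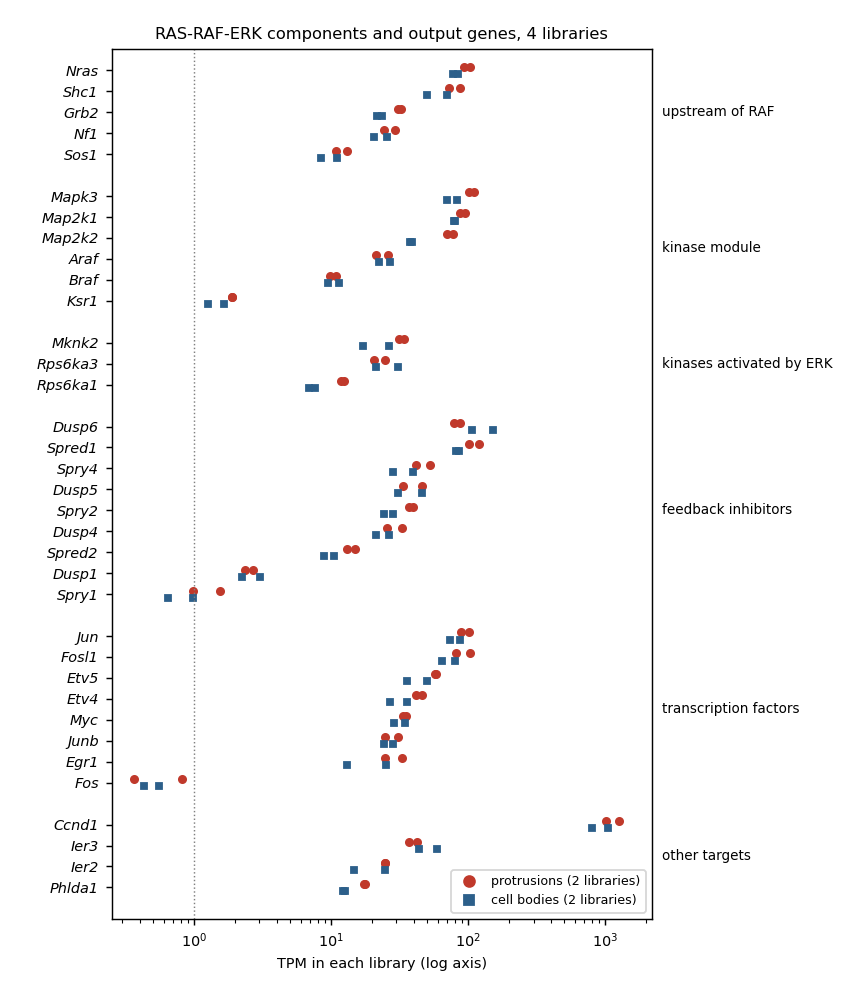
Level of the 35 genes in TPM (log axis) in the 2 protrusion libraries (red circles) and the 2 cell body libraries (blue squares), grouped by role and ordered by mean level. The levels span Fos, under 1 TPM in all 4 libraries, to Ccnd1, at 1258 TPM in protrusions 2, and the circles lie to the right of both squares for 19 of the 34 tested genes.

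Upstream of RAF, all 5 genes had log2 fold changes above 0, with a median of 0.29 and none past the threshold without the block. Grb2, the adaptor that carries SOS1 to activated receptors, was at 31.0 and 32.4 TPM in protrusions and 21.7 and 23.6 TPM in cell bodies. The 2 fractions did not overlap, and its log2 fold change was 0.48 (SE 0.13, adjusted p = 0.074, and 0.044 with the block, limma). Shc1, the adaptor that links receptors to GRB2, was at 87.4 and 73.0 TPM in protrusions and 70.1 and 50 TPM in cell bodies. Both fractions were lower in replicate 2, so that its log2 fold change of 0.43 (SE 0.19) had an adjusted p of 0.193 without the block and of 0.041 with it. It was 0.19 without cell bodies 2 and 0.67 without cell bodies 1. Nf1, whose product neurofibromin returns RAS to its GDP form, had the smallest difference of this group. It was at 29.0 and 24.4 TPM in protrusions and 20.4 and 25.7 TPM in cell bodies, with overlapping fractions, and the log2 fold change was 0.21 (SE 0.17, adjusted p = 0.444). Nras, the RAS gene often mutated in melanoma, averaged 97.9 ± 6.45 TPM in protrusions and 81.6 ± 4.94 TPM in cell bodies (SD, n = 2 each), and Sos1 averaged 11.96 ± 1.55 TPM in protrusions and 9.76 ± 1.88 TPM in cell bodies. Their log2 fold changes of 0.26 and 0.29 did not pass in either fit. The exchange factor was thus the least abundant upstream component and Nras the most abundant.

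The kinase module was divided. Map2k2 (MEK2) was at 70.0 and 77.9 TPM in protrusions, against 39.3 and 37.8 TPM in cell bodies, an average of 73.9 ± 5.58 TPM in protrusions and 38.5 ± 1.02 TPM in cell bodies (SD, n = 2 each). It rose by 0.93 on the log2 scale (SE 0.12, 95% confidence interval 0.63 to 1.23, adjusted p = 0.034, and 0.0016 with the block, limma). It was the only one of the 34 genes past the threshold without the block, and the difference was 0.82 in replicate 1 and 1.03 in replicate 2. The call did not survive the loss of a library: the adjusted p was 0.056 without protrusions 1, 0.161 without protrusions 2, 0.090 without cell bodies 1 and 0.162 without cell bodies 2, with log2 fold changes of 0.85 to 1.00. Map2k1, which encodes MEK1, the other substrate of RAF, was at 95.5 and 87.1 TPM in protrusions and 79.5 and 80.3 TPM in cell bodies, and its log2 fold change was 0.19 (SE 0.11, adjusted p = 0.298). The fractions of Map2k1 did not overlap either, but the difference was small. The Map2k2 level was 0.733 and 0.894 times that of Map2k1 in protrusions and 0.494 and 0.471 times in cell bodies, so that the MEK mRNAs were nearer to equal in protrusions. An exact permutation test of 2 against 2 libraries cannot give a p below 0.333, which is the p of this ratio, the raw value over 7 ratios computed.

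The RAF mRNAs did not show such a difference. Braf, the mutated driver of this line, was at 10.8 and 9.83 TPM in protrusions and 9.42 and 11.4 TPM in cell bodies. Its fractions overlapped, and its log2 fold change of -0.01 had a 95% confidence interval of -0.42 to 0.41 (adjusted p = 0.981). Araf, the RAF paralog on the X chromosome, was at 25.9 and 21.4 TPM in protrusions and 26.9 and 22.5 TPM in cell bodies, and the log2 fold change was -0.06 (SE 0.16, adjusted p = 0.827). In both fractions replicate 2 was lower for Araf, and its level was more than that of Braf in each of the 4 libraries. Mapk3, which encodes ERK1, was at 110.5 and 101.2 TPM in protrusions, the highest level of the module there, and at 83.4 and 70.0 TPM in cell bodies. The fractions did not overlap, and the log2 fold change was 0.47 (SE 0.13, adjusted p = 0.084, and 0.024 with the block). Ksr1, a scaffold that holds RAF, MEK and ERK together, was the least abundant, with 1.90 ± 0.0149 TPM in protrusions and 1.46 ± 0.273 TPM in cell bodies (SD, n = 2 each) and a log2 fold change of 0.30 (adjusted p = 0.459). From RAF to ERK the log2 fold changes thus ran at -0.06 and -0.01 for the RAF mRNAs, at 0.19 and 0.93 for the MEK mRNAs and at 0.47 for ERK1.

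The kinases that ERK activates differed from each other. Rps6ka1, which encodes the ribosomal S6 kinase RSK1, was at 12.4 and 11.9 TPM in protrusions and 6.95 and 7.599 TPM in cell bodies. The fractions were well apart, and the log2 fold change was 0.70 (SE 0.15, adjusted p = 0.052, and 0.024 with the block). Its paralog Rps6ka3 (RSK2) was at 24.9 and 20.5 TPM in protrusions and 21.5 and 30.9 TPM in cell bodies. The 2 replicates of Rps6ka3 went opposite ways, by 0.21 and -0.58, so that its log2 fold change of -0.19 (SE 0.21) had an adjusted p of 0.588. The Rps6ka1 level was 0.497 and 0.579 times that of Rps6ka3 in protrusions and 0.324 and 0.246 times in cell bodies (exact permutation p = 0.333, the smallest possible). These paralogs had the highest and the lowest fold change of this group, so that the size of the shift follows from their choice. Mknk2, which encodes the kinase MNK2 that phosphorylates the cap-binding factor eIF4E, was at 34.01 and 31.2 TPM in protrusions and 26.6 and 17.2 TPM in cell bodies. Its fractions did not overlap, and the log2 fold change was 0.60 (SE 0.22, adjusted p = 0.137, and 0.028 with the block). Cell bodies 2 was the lowest of the 4 libraries, and the fold change was 0.29 without it and 0.90 without cell bodies 1.

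The feedback inhibitors lay on both sides of 0. Of the 9 genes 7 had log2 fold changes above 0, with a median of 0.39, and the summed level was 371.3 and 359.8 TPM in protrusions and 315.4 and 381.9 TPM in cell bodies, which overlapped. Dusp6, whose product dephosphorylates ERK in the cytoplasm, was at 87.2 and 78.9 TPM in protrusions, against 106.0 and 151.6 TPM in cell bodies. Both protrusion libraries lay below both cell body libraries, and its log2 fold change was -0.61 (SE 0.19, 95% confidence interval -1.07 to -0.14, adjusted p = 0.096, and 0.020 with the block). It was the lowest fold change of the set, and it was unequal in the 2 replicates, -0.28 in replicate 1 and -0.94 in replicate 2. Replicate 2 differed from replicate 1 by -0.142 in protrusions and by 0.515 in cell bodies, so that the fractions did not share this difference. Without cell bodies 2 the log2 fold change was -0.35 and without cell bodies 1 it was -0.87. Spry2, a Sprouty protein that blocks signalling between receptor and RAF, went the other way, with 39.9 and 37.0 TPM in protrusions and 28.5 and 24.2 TPM in cell bodies. Its fractions did not overlap, and the log2 fold change was 0.54 (SE 0.14, adjusted p = 0.069, and 0.023 with the block), the highest of the inhibitors. Spry4 was at 41.5 and 52.9 TPM in protrusions and 28.5 and 39.5 TPM in cell bodies. Replicate 2 was the higher in both fractions, and its log2 fold change of 0.47 (SE 0.21) had an adjusted p of 0.180 without the block and of 0.034 with it. It was 0.24 without cell bodies 1 and 0.30 without protrusions 2. The Spry2 level was 0.458 and 0.469 times that of Dusp6 in protrusions and 0.269 and 0.160 times in cell bodies. These 2 genes had the highest and the lowest fold change of the inhibitors, so that the size of this shift follows from their choice.

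The other inhibitors gave no call in either fit. Spred1 and Spred2, which hold RAS inactive together with neurofibromin, averaged 110.2 ± 13.1 and 13.9 ± 1.35 TPM in protrusions and 83.9 ± 2.62 and 9.75 ± 1.14 TPM in cell bodies (SD, n = 2 each). Their log2 fold changes were 0.39 and 0.50, without overlap of the fractions. Spry1, at about 1 TPM, had a fold change of 0.42 (log2, SE 0.32). Dusp4, a nuclear phosphatase, averaged 29.2 ± 5.14 TPM in protrusions and 24.0 ± 3.71 TPM in cell bodies, which put its log2 fold change at 0.28. Dusp5, which acts on ERK in the nucleus, was higher in replicate 2 of both fractions and had a log2 fold change of 0.06, and Dusp1, a nuclear phosphatase of several MAP kinases, had one of -0.04 at 2.22 to 3.04 TPM in the 4 libraries. The 95% confidence intervals of Dusp1, Dusp4 and Dusp5 all included 0.

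**Figure D2:**
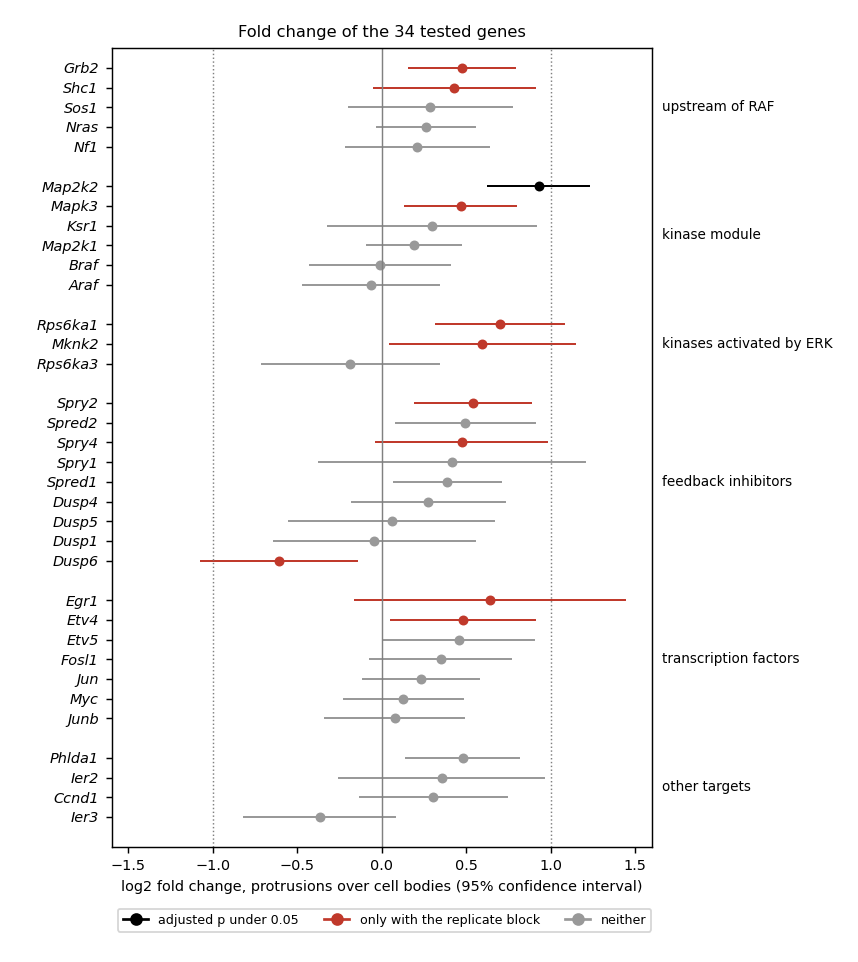
Log2 fold change of the 34 tested genes, protrusions over cell bodies, with 95% confidence intervals from the limma fit without the block, grouped by role and ordered within it. Black marks Map2k2 (0.93), past the threshold in both fits, red the 10 genes past it only with the replicate block, of which Dusp6 (-0.61) alone lies below 0, and grey the other genes.

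All 7 tested transcription factors had log2 fold changes above 0, with a median of 0.35, and none passed without the block. Scaling to the control genes Ppia and Ywhaz put Junb (-0.061) and Myc (-0.011) below 0, and GC correction put Junb there (-0.22). Etv4, an ETS factor of the PEA3 family and a standard readout of ERK activity, was at 46.2 and 41.5 TPM in protrusions and 36.1 and 27.1 TPM in cell bodies. The fractions did not overlap, and the log2 fold change was 0.48 (SE 0.17, adjusted p = 0.129, and 0.038 with the block), or 0.28 without cell bodies 2. Its relative Etv5 averaged 58.0 ± 0.495 TPM in protrusions and 42.8 ± 10.1 TPM in cell bodies (SD, n = 2 each), with a log2 fold change of 0.46 (adjusted p = 0.154, and 0.054 with the block), 0.21 without cell bodies 1 and 0.70 without cell bodies 2. Egr1, a zinc finger factor that is among the earliest genes induced by ERK, was at 24.8 and 32.9 TPM in protrusions and 12.98 and 25.3 TPM in cell bodies. Its fractions overlapped, since both replicates 2 were the higher, and its log2 fold change of 0.64 (SE 0.32) had an adjusted p of 0.234 without the block and of 0.024 with it. Within replicate 1 the difference was 0.91 and within replicate 2 it was 0.37, and the log2 fold change was 0.17 without cell bodies 1 and 1.11 without cell bodies 2.

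Among the AP-1 genes, Jun and Fosl1 were abundant and Fos was nearly silent. Fos was at 0.814 and 0.365 TPM in protrusions and 0.434 and 0.552 TPM in cell bodies, from 13 to 23 reads in a library, so that a difference was not detectable at this depth. Fosl1, which encodes FRA1, averaged 92.5 ± 14.8 TPM in protrusions and 72.5 ± 10.9 TPM in cell bodies, and Jun averaged 95.03 ± 9.02 TPM in protrusions and 81.0 ± 9.57 TPM in cell bodies (SD, n = 2 each). Their log2 fold changes were 0.35 and 0.23 with adjusted p of 0.219 and 0.304. Junb was at 24.6 and 30.9 TPM in protrusions and 28.2 and 24.2 TPM in cell bodies, with overlapping fractions and the smallest log2 fold change of the factors, 0.08 (SE 0.17, adjusted p = 0.787). Myc, whose protein ERK stabilizes, averaged 34.4 ± 1.56 TPM in protrusions and 31.6 ± 4.07 TPM in cell bodies, and its log2 fold change was 0.13 (adjusted p = 0.585). Of these AP-1 mRNAs those of Jun and Fosl1 were thus the most abundant in both fractions.

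The other targets gave no call in either fit. Ccnd1, which encodes cyclin D1 and links the pathway to the cell cycle, was by far the most abundant mRNA of the set, at 1011 and 1258 TPM in protrusions and 799 and 1042 TPM in cell bodies. Its libraries overlapped, and the log2 fold change was 0.31 (SE 0.18, adjusted p = 0.286, and 0.096 with the block), or 0.12 to 0.50 with a library left out. It was the largest part of the summed level of all 35 genes, 2481 and 2690 TPM in protrusions and 1991 and 2294 TPM in cell bodies. Without Ccnd1 the sums were 1470 and 1432 TPM in protrusions and 1192 and 1252 TPM in cell bodies, so that the order of the fractions did not rest on it. Phlda1, an immediate early gene with a pleckstrin homology-like domain, was at 17.6 and 17.5 TPM in protrusions and 12.6 and 12.3 TPM in cell bodies. The replicates lay close together and the fractions apart, and the log2 fold change was 0.48 (SE 0.14, adjusted p = 0.081, and 0.067 with the block), the highest of this group. Ier3, an immediate early gene linked to survival, was at 36.8 and 42.2 TPM in protrusions and 43.7 and 59.6 TPM in cell bodies, and with Dusp6 it was one of the 2 genes whose protrusion libraries both lay below both cell body libraries. Its log2 fold change was -0.37 (SE 0.18, adjusted p = 0.227, and 0.087 with the block), -0.15 without cell bodies 2 and -0.59 without cell bodies 1. Ier2 averaged 24.6 ± 0.0791 TPM in protrusions and 19.8 ± 7.04 TPM in cell bodies (SD, n = 2 each), and its log2 fold change was 0.36 (adjusted p = 0.368) that was -0.007 without cell bodies 2.

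The contrast of the signalling components, most of them kinases, adaptors and GTPase regulators, with the output genes gave little difference in fold change. The log2 fold change had a median of 0.35 over the 20 tested output genes and of 0.29 over the 14 signalling components, a difference of 0.06, against a median of -0.07 over all tested genes. By replicate the median was 0.34 and 0.31 for the output genes and 0.33 and 0.34 for the signalling components. Above 0 lay 17 of the 20 output genes and 11 of the 14 signalling components. The 10 genes higher with the block were 4 output genes and 6 signalling components, and both genes whose protrusion libraries lay below those of cell bodies were output genes. Removing the trend of each library on GC content turned the difference of the medians to -0.15, and leaving out cell bodies 1 turned it to -0.14, so that its sign was not stable.

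GC content moved with the set. The median transcript of the set had 54.0% GC, that of the output genes 54.6% and that of the signalling components 52.5%, against 49.9% over all tested genes. Map2k2 has 60.4% GC, above 95.8% of the tested genes, and with the correction its log2 fold change was 0.68 (adjusted p = 0.042, and 0.0064 with the block). With the block and the correction 11 genes were higher and 2 lower, and 6 of the 10 called with the block alone were among them, namely Egr1, Grb2, Map2k2, Rps6ka1, Spry2 and Spry4. Mapk3 (0.31), Mknk2 (0.35), Shc1 (0.41, adjusted p = 0.053) and Etv4 (0.28) were no longer called, and Nras, Sos1, Spred1, Spred2 and Etv5 were. Dusp6 was lower under both (-0.50 with the correction), joined by Ier3 (-0.42). The part of GC content in the fold changes was not tested further.

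Nuclear RNA moved with the fractions as well. Of 9 nuclear noncoding RNAs 7 were in the table, summing to 33360 and 34690 TPM in protrusions and 58290 and 60280 TPM in cell bodies, most of it Rmrp and Rpph1. Malat1, which stays in the nucleus, was at 1368 and 1420 TPM in protrusions and 1833 and 2781 TPM in cell bodies, and its log2 fold change was -0.70 (SE 0.20, adjusted p = 0.087, and 0.0089 with the block). Of the nuclear RNAs tested, Rmrp and Rpph1 passed in both fits, Malat1 and Terc with the block alone, and Neat1 and Kcnq1ot1 in neither. The libraries were made from rRNA-depleted total RNA, which keeps unspliced RNA. The share of nuclear RNA in the values of the output genes was not tested. The direction of Dusp6 and Ier3 was that of the nuclear RNAs, but also that of 6488 of the 11400 tested genes. That of most output genes was the opposite.

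Where the 2 classes did differ in these libraries was in how the replicates varied. Between replicates 2 and 1 the median absolute log2 difference was 0.19 in protrusions and 0.38 in cell bodies for the output genes, and 0.13 in protrusions and 0.26 in cell bodies for the signalling components, against 0.16 in protrusions and 0.18 in cell bodies over all tested genes. The widest in cell bodies was Egr1, with 0.40 in protrusions and 0.94 in cell bodies, and Dusp5 differed by 0.47 in protrusions and 0.57 in cell bodies, and Spry4 by 0.35 in protrusions and 0.47 in cell bodies. Of the 20 output genes 16 (80%) varied in the same direction in both fractions, 9 of them upward in replicate 2 and 7 downward, against 7 of the 14 signalling components (50%) and 53.2% of all tested genes. Across the output genes the replicate differences of protrusions and cell bodies had a Pearson correlation of 0.64, across the signalling components of -0.15 and across all tested genes of 0.45. This describes 4 libraries of 2 replicates, and genes are not independent points. Among the signalling components Rps6ka3 and Mknk2 varied most in cell bodies, by 0.52 and -0.62, with -0.27 and -0.12 in protrusions. Differences shared by the fractions are what the block removes, and the SE of Egr1 was 0.17 with the block against 0.32 without it. Among the genes called with the block, however, the SE rose for Map2k2 (0.121 to 0.137), Rps6ka1 (0.153 to 0.190), Grb2 (0.127 to 0.150) and Spry2 (0.140 to 0.146). It fell for the others. The blocked fit also had more prior degrees of freedom, 10.2 against 3.81, so that its calls do not rest on shared differences alone.

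**Figure D3:**
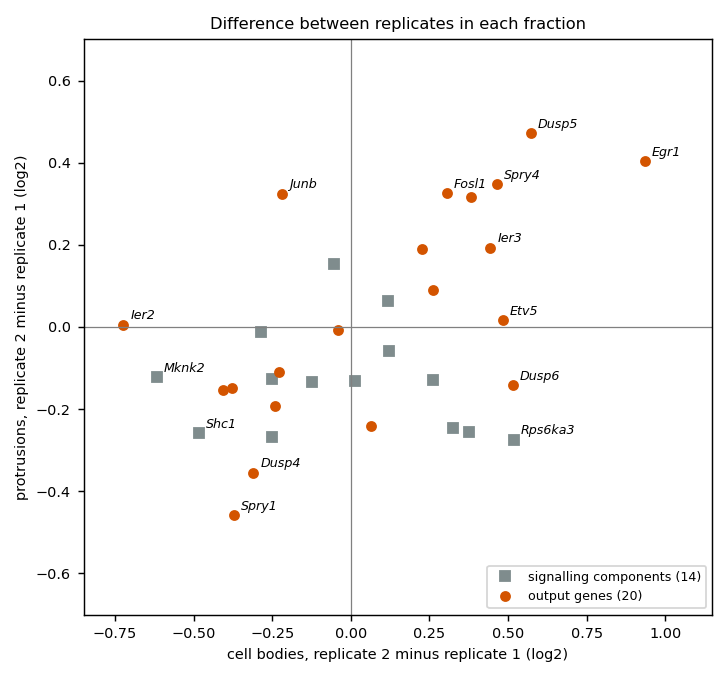
Difference of replicate 2 minus replicate 1 in log2(TPM + 0.5), in protrusions (vertical axis) and in cell bodies (horizontal axis), for 20 output genes (orange circles) and 14 signalling components (grey squares). Of the circles 16 of 20 have the same sign on both axes, with Egr1 at 0.40 in protrusions and 0.94 in cell bodies, and of the squares 7 of 14 do.

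A list of other genes of the pathway was set beside the 35. It held 86 genes, of which 82 were in the table and 71 were tested, and it ranges from further RAS, RAF and ERK genes to further phosphatases, immediate early genes and secreted ERK targets. Without the block 4 (5.63%) were higher and 3 lower, against 2.99% and 4.25% of all tested genes. With it 14 (19.7%) were higher, against 8.08% of all, and 6 (8.45%) were lower, a smaller share than the 13.3% of all. The median log2 fold change was 0.17, against -0.07 over all. Rps6ka4, which encodes MSK2, a kinase that phosphorylates chromatin downstream of ERK and p38, was at 105.1 and 108.4 TPM in protrusions and 60.8 and 51.4 TPM in cell bodies. It rose by 0.93 on the log2 scale (SE 0.13, adjusted p = 0.035), much as Map2k2 did. Sh2b3, an adaptor that dampens cytokine receptor signalling, rose by 0.81 (adjusted p = 0.035), the transcription factor Klf4 by 0.75 (adjusted p = 0.040) and Ppp1ca, a phosphatase catalytic subunit that takes part in RAF activation, by 0.55 (adjusted p = 0.045). The call of Ppp1ca was lost with GC correction (0.44, adjusted p = 0.095, and 0.070 with the block), with median scaling (adjusted p = 0.052) and with scaling to Ppia and Ywhaz (adjusted p = 0.092), and that of Klf4 with the scaling to Ppia and Ywhaz (adjusted p = 0.051). Neither fraction overlapped the other for any of these 4 genes. The 3 that were lower are all ERK targets whose proteins leave or face the outside of the cell. Areg (amphiregulin, a ligand of the EGF receptor) was at 21.01 and 18.0 TPM in protrusions and 33.6 and 36.0 TPM in cell bodies, and it fell by 0.82 on the log2 scale (SE 0.14, adjusted p = 0.038). Ereg (epiregulin, a ligand of the same family) was at 97.1 and 82.0 TPM in protrusions and 141.0 and 168.7 TPM in cell bodies, and it fell by 0.79 (SE 0.15, adjusted p = 0.042). With GC correction the log2 fold change of Ereg was -0.45 (adjusted p = 0.074, and 0.036 with the block). Plaur, the receptor of urokinase, was at 65.3 and 58.1 TPM in protrusions and 93.7 and 117.8 TPM in cell bodies, and it fell by 0.77 (SE 0.15, adjusted p = 0.045). Without protrusions 1 none of these 7 genes passed, with adjusted p of 0.064 for Rps6ka4, 0.086 for Sh2b3, 0.089 for Klf4, 0.116 for Ppp1ca, 0.067 for Areg, 0.066 for Ereg and 0.084 for Plaur, and none passed when any other library was left out.

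The genes of the list that encode secreted or cell surface proteins were then pooled, a choice made after these values were seen, and so described without a test. All 9 (Areg, Ereg, Hbegf, Plau, Plaur, Ctgf, Cyr61, Lif and Epha2) had log2 fold changes below 0, against 6488 of the 11400 tested genes. Their median was -0.63, and that of the other 62 genes was 0.24. Lif was at -0.14 (adjusted p = 0.718, limma), and Cyr61 was at 0.008 in replicate 1 and -0.77 in replicate 2. Secreted and surface genes outside the list were not examined, so whether the direction is particular to this pathway was not tested. With the block 6 of the 9 were lower and 0 higher, and of the other 62 genes 14 were higher and 0 lower, beside 13.3% lower and 8.08% higher over all tested genes. The listed output genes of the pathway were thus split in these libraries. Most of those encoding intracellular proteins had log2 fold changes above 0, and the 9 encoding secreted or surface proteins had them below 0.

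**Figure D4:**
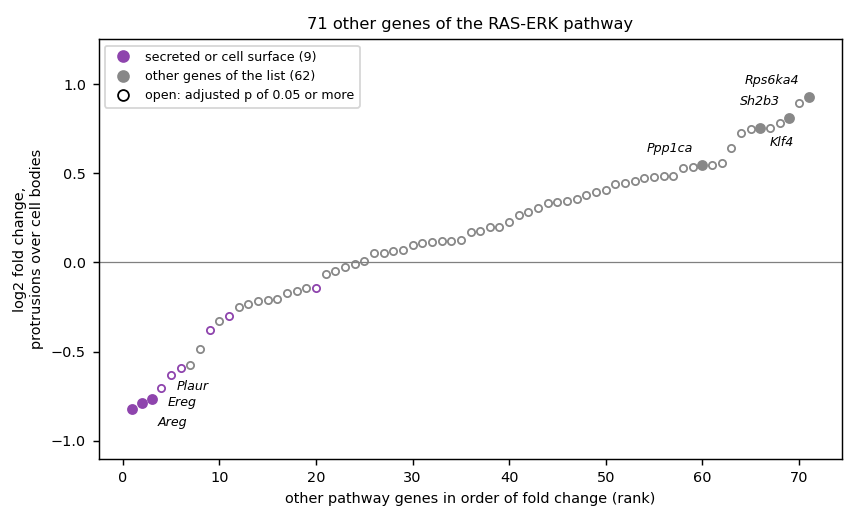
Log2 fold change, protrusions over cell bodies, of 71 other genes of the pathway in order of rank. Purple marks 9 genes of secreted or cell surface proteins, all below 0, grey the other 62, and filled points the 7 genes past the threshold without the block, from Areg at -0.82 to Rps6ka4 at 0.93.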

How the data were processed

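RNA-seq libraries of YUMM1.7 protrusions and cell bodies were grouped by the submitters' labels, 2 libraries each. RNA had been prepared with a stranded, rRNA-depleted total RNA kit and sequenced as single reads. The authors deposited 1 table of TPM per library on mm10. The paper's methods name FastQC, TopHat and edgeR, the submitters' processing notes FastQC, STAR, featureCounts and edgeR, and versions from the notes are not given in the sources used here. The authors also deposited log2 fold changes, the mean log2 CPM, likelihood ratio scores, p-values and FDR from edgeR. Of these the mean log2 CPM alone was used, to set the scale of the recovered reads. All per-sample columns were used.

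The table holds TPM, so limma 3.58.1 (R 4.3.3) with a trend was fitted to log2(TPM + 0.5) of genes with a mean of at least 1 TPM, two-sided, without a block. On this scale changes of low genes are understated. The moderated variance had 3.81 prior degrees of freedom (10.2 in the blocked fit), beside 2 and 1 residual ones. A supplementary heading of the study calls the samples paired. The replicate differences of the 2 fractions correlated over the 11400 genes (r = 0.45), but only 53.2% of these genes differed in the same direction. The number was therefore taken as a pair, and the blocked value stands beside results it changed. SDs are over 2 libraries and intervals are 95% confidence intervals. Nothing in the labels says how far the cultures of the replicates were separate, so that p-values measure the spread between these samples. Gene length cancels in TPM ratios between libraries, which gave whole reads, within 0.01 reads for all 16537 genes. They served for depth and for a limma voom fit. Both scripts were tested on simulated data.

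GC content, 3′ UTRs and motifs came from GENCODE M21, with 15710 genes matched by symbol and 642 by synonym. Some genes overlap an annotated gene on the same strand (Braf, Grb2 and Rps6ka1), and reads there could have been split. The members and lists were chosen with earlier results of these data known. All 35 genes are named, those past the threshold in either fit, Braf and the extremes of each role with every library, and of the other pathway genes those past the threshold with the 3 largest folds in each direction. Ppp1ca was added after its values were seen. Alternatives were 2 pseudocounts, 2 filters, 2 scalings, GC correction, the block, voom and, without the block, leaving out each library.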

Additional observations from a re-analysis of the deposited data

How the results depend on the processing

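Leaving out any of the 4 left 0 of the 34 genes past the limma threshold in either direction, with 5 to 11 higher and 0 to 2 lower at an unadjusted p under 0.05. Of all tested genes 0 to 14 were then higher and 0 to 144 lower (836 to 1167 and 1063 to 2057 unadjusted), and of the other pathway genes 0 in either direction (10 to 15 and 4 to 10 unadjusted). Without a filter on low values limma called 0 genes in any of these counts, with 9 genes of the set higher and 1 lower, 16 and 7 of the other pathway genes, and 1468 and 2162 of all genes at an unadjusted p under 0.05. Genes of the set called higher numbered 2 at a minimum of 5 TPM, 3 with median scaling, 3 with GC correction, 4 with voom on whole reads, 10 with the replicate block and 11 with the block and GC correction. Genes called lower numbered 1 with the block, 1 with scaling to Ppia and Ywhaz (Dusp6) and 2 with the block and GC correction. Scaling to Ppia and Ywhaz moved all log2 fold changes by -0.14 and median scaling by 0.08.

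Over all genes, counts higher and lower were 341 and 485 in the reported fit, 921 and 1513 with the block, 1260 and 1457 with the block and GC correction, 207 and 1099 with scaling to Ppia and Ywhaz, 775 and 889 with voom, and 505 and 801 at a minimum of 5 TPM. For the other pathway genes they were 14 and 6 with the block, 19 and 7 with the block and GC correction, 2 and 5 with scaling to Ppia and Ywhaz, 11 higher with voom, and 4 and 2 with GC correction.

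The median log2 fold change of the signalling components was 0.33 with a pseudocount of 0.1, 0.27 with a pseudocount of 1, 0.15 with scaling to Ppia and Ywhaz, 0.37 with median scaling, 0.38 with GC correction, with or without the block, 0.40 with voom and 0.24 to 0.37 with a library left out. That of the output genes was 0.33 with a pseudocount of 1, 0.21 with scaling to Ppia and Ywhaz, 0.43 with median scaling, 0.22 with GC correction, with or without the block, 0.41 with voom and 0.23 to 0.34 with a library left out. Their difference was 0.024 with a pseudocount of 0.1, -0.15 with GC correction, with or without the block, 0.013 with voom and -0.142 to 0.084 with a library left out.

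Of the single genes, 8 with small changes turned direction. With GC correction, with or without the block, log2 fold changes were 0.25 for Braf, 0.12 for Rps6ka3, -0.065 for Dusp5 and -0.22 for Junb. With median scaling they were 0.071 for Braf, 0.017 for Araf and 0.035 for Dusp1, and with scaling to Ppia and Ywhaz -0.079 for Dusp5, -0.061 for Junb and -0.011 for Myc. With voom Braf was at 0.053. With a library left out the lowest and highest values were -0.139 and 0.122 for Braf, -0.196 and 0.071 for Araf, -0.233 and 0.144 for Dusp1, -0.227 and 0.346 for Dusp5, -0.085 and 0.239 for Junb, -0.003 and 0.256 for Myc, -0.007 and 0.717 for Ier2 and -0.445 and 0.073 for Rps6ka3. The cause of these turns was not tested.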
